A study of Mus musculus with 8 samples.

Results

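The genes described here were 7 components of thyroid hormone handling and response, taken by symbol from the 27998 genes listed in each of 8 libraries. The rule that defines the set uses no measured value, although the set was proposed with earlier results of these data known. They were the nuclear receptors Thra and Thrb, the deiodinases Dio2 and Dio3, the transporter Slc16a10, the cytosolic hormone-binding protein Crym and the hormone-responsive transcription factor Klf9. Each symbol had 1 row in the count tables, and all 7 were detected. Single-cell RNA-seq had been performed on mouse organs of Corti, the sensory strip of the cochlea, after the lateral walls were removed. All libraries came from mice carrying the inducible driver Fgfr3iCre+ and the transgene Atoh1-HA+, with the hair cell reporter Chrna9-GFP+ and the recombination reporter Rosa26-CAG-loxP-stop-loxP-tdTomato+. Tamoxifen given at P12 to P13 switches on Atoh1-HA from a CAG promoter in the cells where Fgfr3 is active, mainly the Deiters' cells (DCs) and pillar cells (PCs), and part of these supporting cells (SCs) convert into hair-cell-like cells (cHCs). The groups were Coch P12 (no tamoxifen, P12, 2 libraries), Coch + Tmx P26 (tamoxifen, P26, 3 libraries), Coch + Tmx P33 (tamoxifen, P33, 2 libraries) and Coch P33 (no tamoxifen, P33, 1 library). The libraries came from mice of 1 combined genotype, so the uninduced groups carried the transgenes too. All later libraries but 1 were also induced, so age and induction cannot be told apart in most of the comparisons with P12.

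Thyroid hormone reaches the cochlea largely as the prohormone T4. Membrane transporters carry it into cells, DIO2 converts it to the active form T3, and DIO3 inactivates both. T3 binds the receptors TRα (Thra) and TRβ (Thrb), which sit on DNA with retinoid X receptors and exchange corepressors for coactivators when hormone binds. Hearing depends on this system: loss of Thrb or of Dio2 deafens mice, and the hormone is needed around the onset of hearing for the tectorial membrane, the opening of the tunnel of Corti and the maturation of hair cells. In the postnatal cochlea Dio2 is known from connective tissue rather than from the sensory epithelium, so that stromal cells can supply T3 to the sensory cells.

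In the mouse assembly GRCm38.p6, Thra (ENSMUSG00000058756) lies on chromosome 11 from 98740776 to 98769006, Thrb (ENSMUSG00000021779) on chromosome 14 from 17659225 to 18040097, Dio2 (ENSMUSG00000007682) on chromosome 12 from 90724552 to 90739038, and Dio3 (ENSMUSG00000075707) on the same chromosome from 110279230 to 110281097. Slc16a10 (ENSMUSG00000019838) lies on chromosome 10 from 40033532 to 40142270, Crym (ENSMUSG00000030905) on chromosome 7 from 120186380 to 120201989, and Klf9 (ENSMUSG00000033863) on chromosome 19 from 23141226 to 23168129. Promoter windows from RefSeq (GRCm38.p6), reaching from 250 bases before to 50 bases after an annotated transcription start, were matched for 5 of the 7 genes, with 2 windows for Thrb. The windows of Thrb and of both deiodinases are shown because Thrb is the receptor on which hearing depends and the deiodinases set the amount of active hormone. Capitals mark the thyroid hormone half-site AGGTCA, searched on both strands.
Thrb, chr14:17660710-17661009, + strand: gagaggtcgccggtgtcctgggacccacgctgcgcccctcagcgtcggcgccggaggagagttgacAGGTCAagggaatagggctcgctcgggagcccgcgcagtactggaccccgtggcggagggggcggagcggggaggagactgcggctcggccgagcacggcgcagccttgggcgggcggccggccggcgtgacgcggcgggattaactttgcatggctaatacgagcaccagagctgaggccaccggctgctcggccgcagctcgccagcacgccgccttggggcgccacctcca
Thrb, chr14:17981394-17981693, + strand: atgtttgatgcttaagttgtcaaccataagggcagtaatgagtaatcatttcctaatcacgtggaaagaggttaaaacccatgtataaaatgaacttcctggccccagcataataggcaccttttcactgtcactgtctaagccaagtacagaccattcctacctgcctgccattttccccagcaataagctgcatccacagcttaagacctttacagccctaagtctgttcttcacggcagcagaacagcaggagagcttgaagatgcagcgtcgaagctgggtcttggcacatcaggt
Dio2, chr12:90738989-90739288, - strand: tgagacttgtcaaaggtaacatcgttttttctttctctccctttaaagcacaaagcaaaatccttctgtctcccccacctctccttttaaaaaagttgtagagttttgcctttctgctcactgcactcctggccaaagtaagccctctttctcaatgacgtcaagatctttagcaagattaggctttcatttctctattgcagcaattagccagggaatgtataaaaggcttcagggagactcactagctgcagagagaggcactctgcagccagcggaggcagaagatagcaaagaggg
Dio3, chr12:110278980-110279279, + strand: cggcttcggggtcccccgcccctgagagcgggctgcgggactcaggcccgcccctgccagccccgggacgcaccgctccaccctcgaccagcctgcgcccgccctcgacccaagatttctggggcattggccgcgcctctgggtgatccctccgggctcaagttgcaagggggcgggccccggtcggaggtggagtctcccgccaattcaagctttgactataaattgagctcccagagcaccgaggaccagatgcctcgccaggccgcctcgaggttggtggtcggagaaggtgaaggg
The upstream Thrb window held the half-site at its positions 67 to 72, and the other 5 windows held none. A half-site was found in 5340 of the 32851 RefSeq windows of this length (16.3%). The direct repeat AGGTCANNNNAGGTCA, which contains the half-site, was found in 5 of these 32851 windows (0.0152%) and in none of the 6 shown or matched for these genes. G and C made up 69% of the Dio3 window and 44.7% of the Dio2 window.

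The libraries held 8061 barcodes, of which 5970 cells were kept after removing 1954 barcodes with fewer than 500 genes, 84 with high mitochondrial UMIs and 53 suspected doublets. Libraries totalled 3972800 to 13423524 UMIs and kept 499 to 1365 cells, with a median of 3535 to 8751.5 UMIs per cell, and no pair of libraries shared more than 3 barcodes. Cells were clustered without the 7 genes, without 30 further genes of the pathway and without Atoh1, and the clusters were named from marker lists, giving stromal-like (3117 cells), nonsensory epithelial-like (631), macrophage-like (560), Reissner's membrane-like (295), SC-like (129), cHC-like (114), HC-like (62) and smaller classes. Most cells were thus stromal, and the sensory epithelium was a small part of each library. Summed levels of 11 hair cell markers were 3826 to 5504 CPM (UMIs scaled to a total of 1000000 in each sum of cells) in cHC-like cells, 5498 to 37232 in HC-like cells and 75.9 to 557 in SC-like cells, and those of 8 markers of DCs and PCs were 1090 to 3452 CPM in SC-like cells against 545 to 1012 in cHC-like cells. Atoh1 was at 90.9 to 517 CPM in 4 induced libraries but at 12.4 CPM in the third Coch + Tmx P26 library (labelled rep 3), which held no cHC-like cell, against 16.5 to 23.5 CPM in the uninduced libraries. That library, called the doubted P26 library from here on, goes against its label. Of the tested differences of members that it enters, those printed are given with and without it, apart from the P26 group taken alone.

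Thrb, the receptor on which hearing depends, was highest in cHC-like cells. Its level was 138 CPM in Coch + Tmx P26 rep 1 (29 cells), 136 in Coch + Tmx P26 rep 2 (6 cells), 139 in Coch + Tmx P33 rep 1 (41 cells) and 167 in Coch + Tmx P33 rep 2 (38 cells). The 4 libraries were alike at both ages. Cells of this class made up 1.91% of all kept cells and held 13.4% of all Thrb UMIs, 235 of 1758. In SC-like cells Thrb was 62.5 and 33.7 CPM at P12 (31 and 8 cells), 45.9 in the doubted P26 library (32 cells), 90.3 and 103 in Coch + Tmx P33 (16 and 12 cells) and 30.1 in Coch P33 (25 cells). The SC-like cells of the induced P33 libraries had the highest values of their class, and the 6 libraries were all below those of cHC-like cells. In HC-like cells, the class named from native hair cell markers, Thrb was 22.8 and 49.9 CPM at P12 (28 and 6 cells) and 31.8 and 18.0 in Coch + Tmx P33 (7 cells each, 3 and 2 UMIs). The HC-like cells of these P33 libraries also held 5736 and 6210 CPM of 9 nonsensory epithelial markers, above the 2230 to 4372 CPM of SC-like cells, beside 9128 and 5498 CPM of the hair cell markers. Those of Coch P12 rep 2 held 2145 CPM of 8 macrophage markers. When suspected doublets were kept and the cells clustered again, the HC-like class held 3 cells in each of the P33 libraries, with 0 Thrb UMIs and with 0 and 2175 CPM of the nonsensory epithelial markers.

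**Figure D1:**
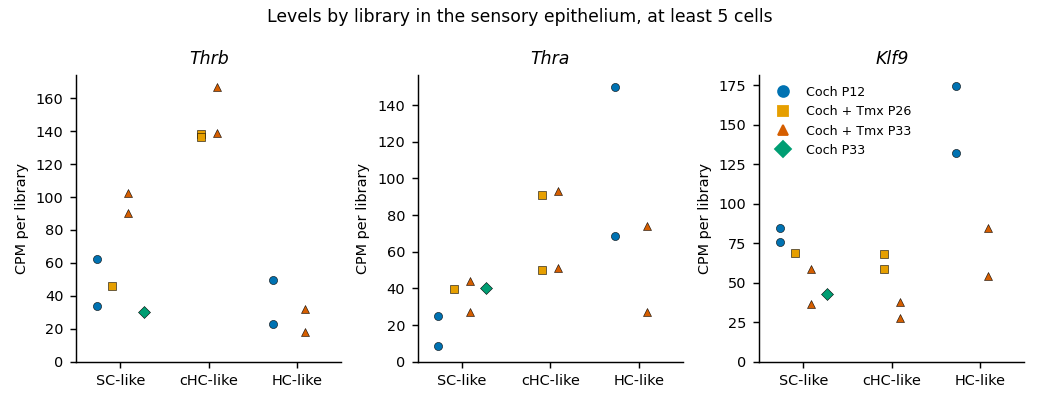
Thrb, Thra and Klf9 in SC-like, cHC-like and HC-like cells. Each point is 1 library with at least 5 cells of the class on an axis of CPM starting at 0, with the colour and shape giving its group. The cHC-like points for Thrb lie between 136 and 167 CPM, above the SC-like points (30.1 to 103) and the HC-like points (18.0 to 49.9).

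cHC-like cells were compared with SC-like and with HC-like cells within the same libraries, using the 2 Coch + Tmx P33 libraries that held enough of each class and the library as a block in edgeR's quasi-likelihood test. Against SC-like cells, 38% of 5780 genes passed an adjusted p of 0.05, 20.9% in the higher direction. Of the 3 members with enough counts, Thra was higher in cHC-like cells by 1.14 ± 0.47 on the log2 scale (SE, adjusted p = 0.0412, 2 of 2 libraries), at 93.0 against 27.1 CPM in Coch + Tmx P33 rep 1 and 51.4 against 44.0 CPM in rep 2. In rep 2 the counting intervals of the Thra levels overlapped, so the call leans on rep 1, and it was lost with DESeq2 (1.03, adjusted p = 0.911) and without the block (1.11, adjusted p = 0.102). Thrb was 0.66 ± 0.33 higher (adjusted p = 0.104), and Klf9 0.55 ± 0.55 lower, with neither past the threshold. In data simulated for this comparison, 20.9% of genes changed by 1 on the log2 scale were recovered, so most changes of that size were missed. Against HC-like cells, 21.2% of 5550 genes passed, 10.5% higher in cHC-like cells. Thrb was higher in cHC-like cells by 2.73 ± 0.53 (adjusted p = 0.0025, 2 of 2 libraries), although its level in HC-like cells rested on 5 UMIs in 14 cells, and the difference did not pass with DESeq2 (2.76, adjusted p = 0.117). These 14 cells are the ones that also held nonsensory epithelial markers, whose part in the difference was not tested, and with doublets kept the HC-like cells were too few for this comparison. The 95% Poisson intervals were 111 to 172 and 134 to 205 CPM in cHC-like cells against 6.56 to 92.9 and 2.18 to 65.1 CPM in HC-like cells. Thra (0.64 ± 0.49, adjusted p = 0.405) and Klf9 (-0.97 ± 0.52, adjusted p = 0.208) did not pass. Between HC-like and SC-like cells, over 4 libraries at P12 and P33, 26.2% of 2045 genes passed, and Klf9 was the only member with enough counts to be tested (0.85 higher in HC-like cells ± 0.30, adjusted p = 0.0715).

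After every cell was thinned to 1000 UMIs, 12.2% to 33.3% of cHC-like cells per library held a Thrb UMI, against 0 to 16.7% of SC-like cells, 0 to 33.3% of HC-like cells and 0 to 2.04% of macrophage-like cells, which are not known to depend on Thrb. The highest HC-like share was that of Coch P12 rep 2, from 2 of 6 cells. Without thinning the shares were 70.7% to 100% in cHC-like, 36.0% to 68.8% in SC-like, 14.3% to 50.0% in HC-like and 0 to 8.05% in macrophage-like cells, at library medians of 9658 to 16512.5, 10783 to 16476, 7148 to 18183 and 4216 to 8530.5 UMIs per cell. The cHC-like share was higher than the macrophage-like share in each of 4 libraries, but the thinned 95% intervals of these classes overlapped in 3 of the 4, and those of cHC-like and SC-like cells overlapped as well.

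**Figure D2:**
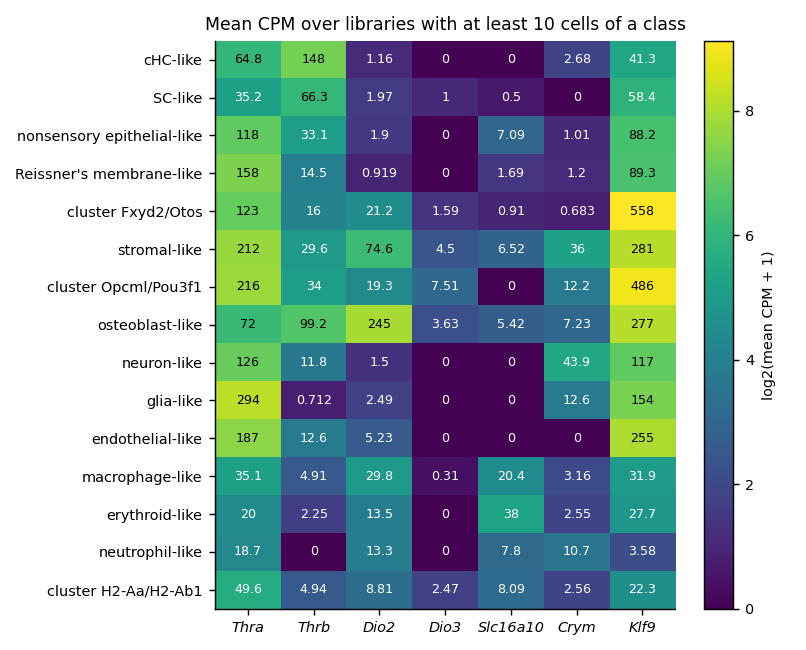
Mean level of each of the 7 genes by class, as the mean CPM over the libraries with at least 10 cells of the class. Rows are classes and columns are genes, the colour gives log2(mean CPM + 1) on 1 scale, each cell prints the mean CPM, and HC-like cells are absent because 1 library held 10 of them. Thrb peaks in cHC-like cells (148 CPM), Dio2 in osteoblast-like cells (245) and Klf9 in the cluster led by Fxyd2 and Otos (558).

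Across all classes, the order of mean Thrb levels was cHC-like (148 ± 16.4 CPM, SD, n = 3 libraries with at least 10 cells), osteoblast-like (99.25 ± 39.2, n = 2), SC-like (66.3 ± 30.1, n = 5), an unnamed P12 cluster led by Opcml and Pou3f1 (34.05 ± 9.64, n = 2), nonsensory epithelial-like (33.1 ± 8.32, n = 8) and stromal-like (29.6 ± 13.8, n = 8). An unnamed cluster led by Fxyd2 and Otos (16.0 ± 14.9, n = 5), Reissner's membrane-like (14.5 ± 6.88, n = 8), endothelial-like and neuron-like cells followed, and glia-like and neutrophil-like cells were at 0.712 and 0 CPM. In a fit over all class sums with the library as a block, neighbours in this order were compared. Thrb in SC-like cells was above the Opcml/Pou3f1 cluster (1.20 ± 0.46 log2, adjusted p = 0.0404, 30.1% of genes called) and in stromal-like cells above the Fxyd2/Otos cluster (1.07 ± 0.40, adjusted p = 0.0431, 24.6% called), and both calls were lost with at least 20 cells per sum (adjusted p = 0.144 and 0.191). Without the doubted P26 library the first did not pass (1.18, adjusted p = 0.0525) and the second did (1.12, adjusted p = 0.0326). The difference between cHC-like and osteoblast-like cells was 0.81 ± 0.46 (adjusted p = 0.192, 27.6% called), and that between osteoblast-like and SC-like cells 0.43 (adjusted p = 0.554, 23.8% called), and without the doubted library these were 0.83 (adjusted p = 0.17) and 0.42 (adjusted p = 0.594).

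Thra, the receptor gene expressed in most tissues, had another order. It was highest in glia-like cells (294 ± 101 CPM, n = 4), then in the Opcml/Pou3f1 cluster (216.5 ± 27.7, n = 2), stromal-like (212 ± 35.8, n = 8), endothelial-like (187 ± 27.9, n = 2) and Reissner's membrane-like cells (158 ± 29.97, n = 8), and it was 118.5 ± 29.9 CPM in nonsensory epithelial-like cells (n = 8). The sensory epithelium stood low in this order, at 64.8 ± 24.4 CPM in cHC-like cells (n = 3) and 35.2 ± 8.53 in SC-like cells (n = 5). No pair of neighbours in the Thra order passed the test, with or without the doubted P26 library, with shares of all genes called from 0.514% (Opcml/Pou3f1 against stromal-like) to 52.2% (Reissner's membrane-like against neuron-like). Glia-like cells, which held the most Thra, held 3 Thrb UMIs in all 115 cells. Thra also encodes TRα2, a splice form that does not bind hormone, and 3′ counts summed per gene do not separate it from TRα1. Nr1d1 overlaps the end of Thra on the opposite strand, and the sources used here do not say that counting used strand, so reads of the overlap cannot be assigned with certainty.

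Receptor levels were next compared between P12 and the later ages within each class, by a contrast of the mean of the 3 later groups with Coch P12. The cells of the stromal-like class came from different clusters at P12 (led by Otor, by Cemip and by Col15a1) and later (led by Npy, by Inmt and by Dcn), so the comparison is between different stromal populations as well as ages. In stromal-like cells Thrb was 57.1 and 39.8 CPM at P12. It was 35.3, 27.1 and 17.0 CPM at P26, 23.6 and 20.2 in the induced libraries at P33 and 17.1 in Coch P33. The 2 P12 libraries were above all 6 later ones. Such separations, here and below, are descriptions only, since the share of all genes separated in this way is not given. Of 11529 genes, 5.25% passed the test, 2.44% in the lower direction. All 7 members were tested and 1 passed, Thrb, which was lower later by 1.12 on the log2 scale (-1.12 ± 0.24, adjusted p = 0.0245). The median difference of the 7 members was -0.80, beside -0.02 over all genes. Without the doubted P26 library the Thrb difference was -1.05 (adjusted p = 0.0232). It no longer passed without Coch P12 rep 1 (-0.92, adjusted p = 0.224), Coch + Tmx P26 rep 2 (-1.12, adjusted p = 0.0601), Coch + Tmx P33 rep 1 (-1.16, adjusted p = 0.0581) or Coch + Tmx P33 rep 2 (-1.08, adjusted p = 0.0718). Each later group taken alone lay below P12, by -0.87 (Coch + Tmx P26, adjusted p = 0.115), -1.13 (Coch + Tmx P33, adjusted p = 0.0947) and -1.37 (Coch P33, adjusted p = 0.182).

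**Figure D3:**
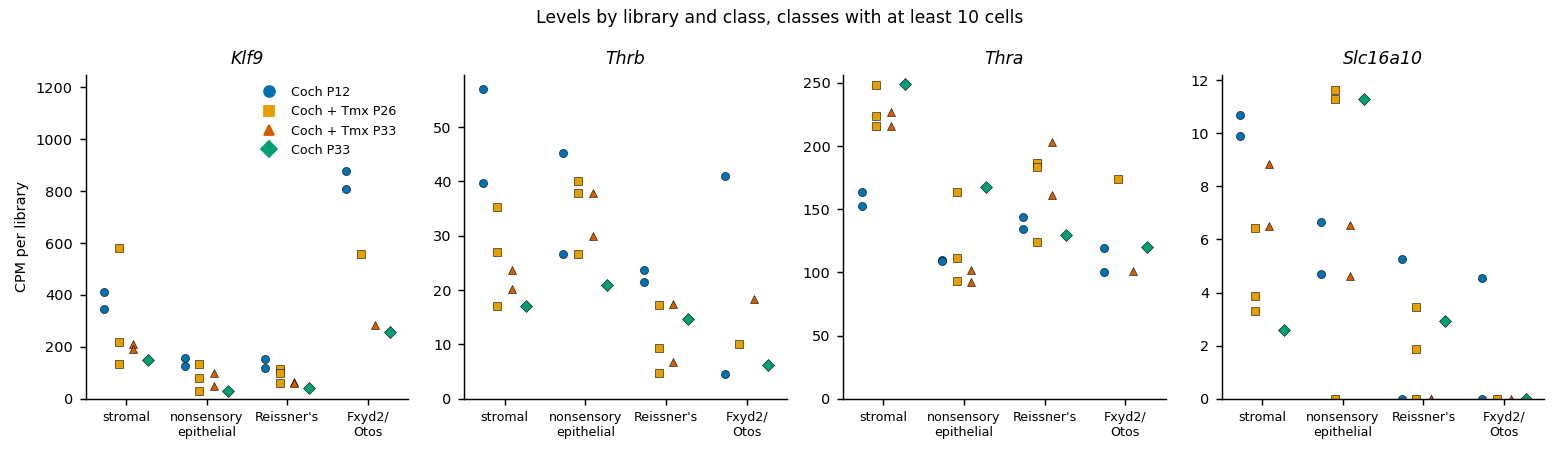
Klf9, Thrb, Thra and Slc16a10 in 4 classes at P12, P26 and P33. Each point is 1 library with at least 10 cells of the class, in CPM, with colour and shape giving its group. In stromal-like cells both P12 points for Thrb (57.1 and 39.8 CPM) lie above the 6 later points (17.0 to 35.3), whereas for Klf9 the later point of Coch + Tmx P26 rep 1 (583) lies above both P12 points.

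Within the stroma, Thrb was concentrated in particular clusters. At P12 it was 68.9 and 50.8 CPM in the cluster led by Otor (504 and 208 cells), 48.1 and 44.1 in that led by Cemip, Col9a3 and Phex, and 16.3 and 6.26 in that led by Col15a1. Later it was 25.1 to 54.2 CPM over 6 libraries in the cluster led by Inmt, Fst and Dpep1, 14.7 to 28.6 in that led by Npy and 0 to 15.6 in that led by Dcn. A single library of the Inmt cluster was above the P12 Cemip cluster and the other 5 were below it, and the Dcn cluster was the lowest in each of the later libraries among these 3. Thra in stromal-like cells was 164 and 152 CPM at P12, 224, 248 and 216 in Coch + Tmx P26, 216 and 227 in Coch + Tmx P33, with Coch P33 at 249, so all 6 later libraries were above both P12 libraries. The Thra difference of 0.60 ± 0.16 had an adjusted p of 0.0589, and passed with DESeq2 (adjusted p = 0.0393). Without the doubted library it was 0.61 (adjusted p = 0.067). The overlapping gene Nr1d1 was 11.5 and 18.0 CPM at P12 and 41.6 to 116 CPM later in the same cells, and its part in the Thra counts was not tested.

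In the epithelia the receptors showed no call. The nonsensory epithelial-like class, like the stroma, came from different clusters at the 2 ages, since 92 of 99 and 48 of 64 of its cells in the P12 libraries were in 2 clusters that held no later cell. Reissner's membrane-like cells were 1 cluster at all ages at Leiden resolution 1.0. At resolution 2.0, 39 and 30 of their P12 cells formed a cluster led by Oc90 with 1 later cell. The other 6 and 4 P12 cells stayed in the cluster that held the later cells. Thrb in nonsensory epithelial-like cells was 45.3 and 26.6 CPM at P12 and 21.0 to 40.1 CPM later (-0.14 ± 0.34, adjusted p = 0.914, and -0.24, adjusted p = 0.772, without the doubted library). The P12 libraries overlapped with the later ones. The age difference of Thrb in the stroma minus that in the nonsensory epithelium was -1.04 ± 0.36 (adjusted p = 0.205), and -0.83 without the doubted library (adjusted p = 0.309). In SC-like cells, where a fit added after seeing the data took libraries with at least 5 cells (4.27% of 5965 genes called), the differences were 0.07 ± 0.45 for Thrb (adjusted p = 0.977), 1.02 ± 0.60 for Thra (adjusted p = 0.448) and -0.51 ± 0.41 for Klf9 (adjusted p = 0.621). Without the doubted library they were 0.09 for Thrb (adjusted p = 0.963) and -0.76 for Klf9 (adjusted p = 0.445), and Thra had too few counts.

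Dio2, the enzyme that makes T3, was a gene of bone and connective tissue in these libraries. Stromal-like cells held 73.7% of its 1948 UMIs, osteoblast-like cells 11% in 90 cells, and macrophage-like cells 9.14%. The mean level was 245 ± 68.7 CPM in osteoblast-like cells (n = 2, both at P12), 74.6 ± 46.3 in stromal-like (n = 8) and 29.75 ± 40.3 in macrophage-like cells (n = 8). Osteoblast-like cells were above stromal-like cells by 2.07 (adjusted p = 0.00127, 10% of genes called) and stromal-like above macrophage-like cells by 1.20 (adjusted p = 0.00102, 53.2% called), and both passed without the doubted library (2.12, adjusted p = 0.00146, and 1.12, adjusted p = 0.00408). No Dio2 UMI was found in 62 HC-like cells, which allows a share of cells with a UMI of up to 4.84%. SC-like cells held 4 Dio2 UMIs in 129 cells, cHC-like cells 2 in 114 and nonsensory epithelial-like cells 15 in 631. The median HC-like, SC-like and cHC-like cell held 7283, 14208 and 12960.5 UMIs, against 5104 in the stromal-like class, where 19.2% of cells held a Dio2 UMI.

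Dio2 and Dio3, which make and remove the active hormone, peaked in the same stromal cluster at P12. In the cluster led by Cemip, Col9a3 and Phex, Dio2 was 266 and 206 CPM and Dio3, on its own scale, 82.0 and 63.7 CPM, from 46 and 68 UMIs. The 10 leading genes of this cluster also held Col2a1 and Col9a1 from the chondrocyte markers and Dmp1 from the osteoblast markers. In the P12 clusters led by Otor and by Col15a1, Dio2 was 9.56 to 21.2 CPM and Dio3 at most 1.57 CPM. Of 102 cells of the Cemip cluster in Coch P12 rep 1, 61 held a Dio2 UMI, 19 a Dio3 UMI and 11 both. In Coch P12 rep 2 the counts were 71, 22 and 14 of 125 cells. Whether both genes fell in the same cells more often than their separate shares give was not tested.

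In the later libraries Dio2 was concentrated in the stromal cluster led by Inmt, Fst and Dpep1. Its level there was 177, 455 and 136 CPM in Coch + Tmx P26 rep 1 to 3, 426 and 429 in Coch + Tmx P33, with Coch P33 at 82.6. In the cluster led by Npy it was 6.74 to 13.7 CPM and in that led by Dcn 0 to 4.66. A cluster led by the interferon genes Ifit3 and Isg15 held 204 CPM in Coch + Tmx P26 rep 2, 70.3 in Coch + Tmx P33 rep 2 and 11.4 in Coch P33 (12 cells). Dio3 in the Inmt cluster was 4.33 to 30.2 CPM, with the highest value, from 14 UMIs, in the doubted P26 library. The 2 libraries in which Atoh1 was not raised after P12, that library and Coch P33, had the lowest Dio2 levels of this cluster. The Poisson interval of the doubted P26 library (104 to 174 CPM) overlapped that of Coch + Tmx P26 rep 1 (150 to 206 CPM). That of Coch P33 (58.5 to 113 CPM) did not. Whether Dio2 in this cluster differed with induction was not tested.

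**Figure D4:**
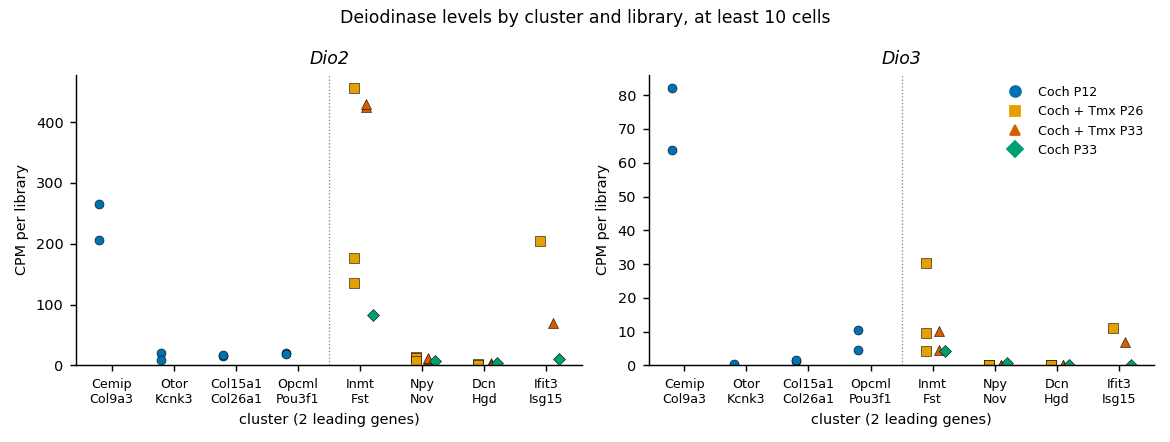
Dio2 and Dio3 in 7 stromal clusters and the unnamed Opcml/Pou3f1 cluster. Each point is 1 library with at least 10 cells of the cluster, in CPM, and the dotted line separates the clusters found at P12 (left) from those found later (right). Dio2 is high in 1 P12 cluster (266 and 206 CPM) and in the later Inmt/Fst/Dpep1 cluster (82.6 to 455), and Dio3 is highest in the same P12 cluster (82.0 and 63.7, against at most 30.2 elsewhere).

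Over all stromal-like cells, Dio3 was 6.5 and 11.9 CPM at P12 and 1.84, 3.23 and 6.62 in Coch + Tmx P26, 2.21 and 2.61 in Coch + Tmx P33, with Coch P33 at 1.11. The later value of 6.62, in the doubted P26 library, overlapped with P12. Dio3 was -2.0 ± 0.52 later (adjusted p = 0.0537) and -2.24 without that library (adjusted p = 0.0291). Stromal-like cells held 90.2% of the 173 Dio3 UMIs, and none was found in cHC-like, HC-like, nonsensory epithelial-like or Reissner's membrane-like cells, where 0 of 114, 62, 631 and 295 cells allow shares of up to 2.63%, 4.84%, 0.475% and 1.02%.

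Dio2 in stromal-like cells was 37.3 and 45.9 CPM at P12, 81.3, 123 and 34.5 in Coch + Tmx P26, 114 and 141 in Coch + Tmx P33, with Coch P33 at 20.4. The later libraries lay on both sides of P12, and the contrast of 0.53 ± 0.35 did not pass (adjusted p = 0.428, and 0.65, adjusted p = 0.14, without the doubted library). Coch + Tmx P33 was above Coch P33 by 2.52 ± 0.58 (unadjusted p = 0.00129, adjusted p = 0.926), in a comparison with 1 uninduced library. In that comparison 0 of 11529 genes passed edgeR's quasi-likelihood test after adjustment and 435 had an unadjusted p under 0.05. In nonsensory epithelial-like cells Dio2 was 8.49 and 2.22 CPM at P12 and 0 to 1.61 later, on 9, 2 and 0 to 2 UMIs. Of the 9 UMIs in Coch P12 rep 1, 8 were in 2 cells. The age difference in the stroma minus that in this epithelium, which compares different clusters at the 2 ages in both classes, was 3.57 ± 0.83 for Dio2 (adjusted p = 0.0444), 1 call among the 6 members tested where 1.31% of 11367 genes passed, 0.994% in the higher direction. The call was lost without Coch + Tmx P26 rep 1 (adjusted p = 0.0501), Coch + Tmx P26 rep 2 (0.0812), the doubted P26 library (3.47, adjusted p = 0.0674), Coch + Tmx P33 rep 1 (0.0851), Coch + Tmx P33 rep 2 (0.118) or Coch P12 rep 1 (2.04, adjusted p = 0.83).

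Macrophage-like cells held Dio2 at 85.6 and 103 CPM in the Coch + Tmx P33 libraries against 3.19 to 14.9 CPM in the other 6. In these libraries 21 of 87 and 24 of 98 macrophage-like droplets also held at least 10 UMIs of stromal markers, and 73 of 73 and 81 of 83 Dio2 UMIs were in those droplets. The age contrast in this class called 0.141% of 7796 genes and none of the 4 members tested (0.73 ± 0.68 for Dio2, adjusted p = 0.748, and 0.82, adjusted p = 0.72, without the doubted library). In osteoblast-like cells, named from Ibsp and Bglap, Dio2 was 294 and 197 CPM at P12 (47 and 24 cells) and 617 to 1045 CPM in 4 later libraries with 3 to 7 cells each, which were too few to test.

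Slc16a10, an aromatic amino acid transporter that also carries thyroid hormones, had its highest class levels in blood lineages. It was 38.0 ± 19.8 CPM in erythroid-like cells (n = 6), 20.4 ± 3.73 in macrophage-like cells (n = 8), 7.09 ± 4.12 in nonsensory epithelial-like (n = 8) and 6.52 ± 3.1 in stromal-like cells (n = 8). Erythroid-like were above macrophage-like cells by 2.08 (adjusted p = 1.67e-06, 36.7% of genes called), and by 1.95 without the doubted library (adjusted p = 5.17e-05). Among erythroid-like cells the cluster led by Hemgn and Rhd held 76.3 and 90.6 CPM in the 2 libraries with at least 10 of its cells, whereas the largest cluster, led by Hba-a2, held 3.99 to 9.36 CPM in 3 libraries, below the macrophage-like level. The macrophage-like level varied little, from 12.2 to 23.6 CPM over all 8 libraries. cHC-like cells held no Slc16a10 UMI (0 of 114 cells, up to 2.63%), SC-like cells 1 and HC-like cells 9. In stromal-like cells it was 10.7 and 9.90 CPM at P12 and 2.60 to 8.86 CPM in the 6 later libraries, which did not overlap with P12, but its difference of -1.14 ± 0.32 had an adjusted p of 0.0707 (-1.09, adjusted p = 0.0926, without the doubted library).

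Crym, which binds T3 in the cytosol and is a known deafness gene, was a gene of stroma and neurons. Stromal-like cells held 85.6% and neuron-like cells 9.32% of its 1159 UMIs. Its level was 43.9 ± 28.4 CPM in neuron-like (n = 4) and 36.0 ± 9.69 in stromal-like cells (n = 8), and stromal-like were above glia-like cells by 3.20 (adjusted p = 2.4e-05, 42.7% of genes called), and by 2.92 without the doubted library (adjusted p = 0.000575). At P12 it was 64.5 and 49.7 CPM in the Otor cluster, 10.7 and 22.5 in the Cemip cluster and 5.43 and 7.04 in the Col15a1 cluster, so that at this age the cluster highest in Crym was not the one highest in the deiodinases. Later it was 37.2 to 61.8 CPM in the Npy cluster and 15.2 to 52.0 in the Inmt cluster. Over stromal-like cells it was 49.4 and 36.0 CPM at P12 and 25.1 to 51.9 later (-0.35 ± 0.24, adjusted p = 0.452, and -0.29, adjusted p = 0.512, without the doubted library), and the groups overlapped. In the sensory epithelium Crym was at 0 UMIs in 129 SC-like cells (a share of up to 2.33%), 1 UMI in 62 HC-like cells and 4 UMIs in 114 cHC-like cells.

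Klf9, a transcription factor induced by T3 in many cell types and also by glucocorticoids, was the member read in most cells, 3363 of 5970. Its order was the Fxyd2/Otos cluster (558 ± 287 CPM, n = 5), the Opcml/Pou3f1 cluster (486.5 ± 95.5, n = 2), stromal-like (281 ± 155, n = 8), osteoblast-like (277 ± 18.1, n = 2) and endothelial-like cells (255 ± 35.7, n = 2). Klf9 in SC-like cells was above that in cHC-like cells by 1.04 ± 0.39 in the fit over all classes (adjusted p = 0.0389, 27.5% of genes called). That call was lost without the doubted library (0.68, adjusted p = 0.235), and within the 2 Coch + Tmx P33 libraries the difference of 0.55 ± 0.55 given above did not pass (adjusted p = 0.463). cHC-like and SC-like cells, both near the top of the Thrb order, were in the lower part of the Klf9 order, at 41.3 CPM in cHC-like and 58.4 CPM in SC-like cells. Osteoblast-like cells, between them in the Thrb order, and the Opcml/Pou3f1 cluster, next below them, stood high in the Klf9 order (277 and 486.5 CPM).

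Klf9 was lower after P12 in Reissner's membrane-like cells, the thin epithelium that bounds the endolymph. It was 119 and 153 CPM at P12, 116, 101 and 58.8 in Coch + Tmx P26, 65.5 and 61.0 in Coch + Tmx P33, with Coch P33 at 41.2, with no overlap between P12 and later. The contrast was -1.10 ± 0.26 (adjusted p = 0.0266), 1 call among the 2 members tested where 2.02% of 7124 genes passed (1.47% lower). Without the doubted library the contrast was -1.02 (adjusted p = 0.0427). At Leiden resolution 2.0 most P12 cells of this class formed a cluster apart from the later ones, so the contrast may also be one between clusters. The Klf9 contrast did not pass with DESeq2 (adjusted p = 0.32), nor without Coch P12 rep 2 (-0.91, adjusted p = 0.168), Coch + Tmx P33 rep 2 (adjusted p = 0.0713) or Coch P33 (-0.82, adjusted p = 0.132). In nonsensory epithelial-like cells Klf9 was 158 and 127 CPM at P12 and 27.7 to 133 later (-1.25 ± 0.40, adjusted p = 0.184, 1.34% of 9737 genes called), and -1.11 without the doubted library (adjusted p = 0.0845), a contrast between different clusters as said above for this class. In the Fxyd2/Otos cluster it was 878 and 810 CPM at P12, 556 in Coch + Tmx P26 rep 1, 285 in Coch + Tmx P33 rep 2 and 259 in Coch P33 (-1.06 ± 0.34, adjusted p = 0.051, 3.13% of 5623 genes called).

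In stromal-like cells Klf9 was 411 and 347 CPM at P12, 583, 217 and 134 in Coch + Tmx P26, 213 and 193 in Coch + Tmx P33, with Coch P33 at 149. A single later library, Coch + Tmx P26 rep 1, lay above P12 and the other 5 lay below. The contrast was -0.80 ± 0.39 (adjusted p = 0.278), -1.07 without that library (adjusted p = 0.012) and -0.69 without the doubted P26 library (adjusted p = 0.242). In the clusters of this class Coch + Tmx P26 rep 1 held 532 to 647 CPM, whereas the other later libraries held 65.5 to 298 and P12 322 to 435. The same library was highest in stromal-like cells for 5 of 5 glucocorticoid-responsive genes. This list was chosen after its values were seen, so the count is not a test, and the share of all genes highest there is not given. Fkbp5 was at 33.5 CPM there against 0.652 to 4.43 in the other 7 libraries and Zbtb16 at 62.0 against 8.04 to 18.1. Their part in the Klf9 values was not tested.

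**Figure D5:**
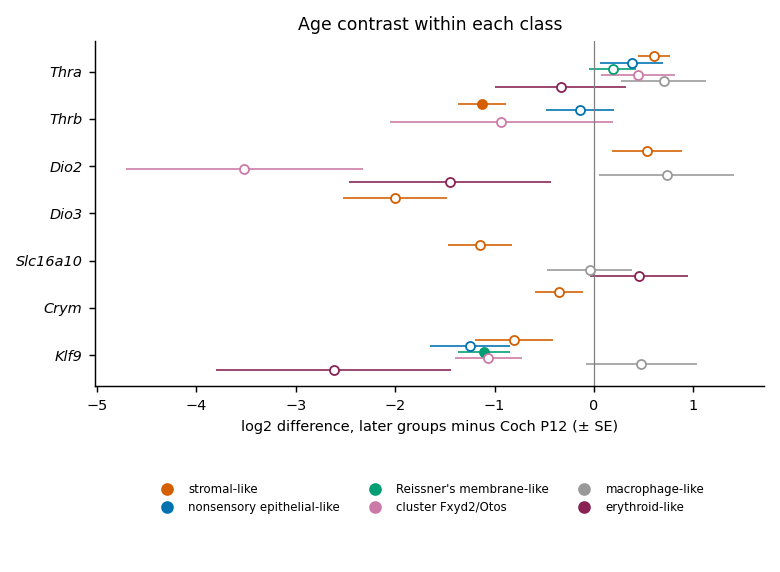
Difference between the later groups and P12 for the members tested in each class, on the log2 scale from edgeR, with bars of 1 SE. Filled points passed an adjusted p of 0.05. Thrb in stromal-like cells (-1.12) and Klf9 in Reissner's membrane-like cells (-1.10) are filled, and the Klf9 points of the stromal-like (-0.80), nonsensory epithelial-like (-1.25) and Fxyd2/Otos classes (-1.06) lie on the same side of 0.

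Other genes of the pathway were taken from a list of 30 transporters, receptor partners, cofactors and hormone-responsive genes. In stromal-like cells 2 of the 23 tested were lower after P12 and none was higher, where 5.25% of all genes passed and 2.44% were lower. They were Hr, a corepressor that is itself induced by T3 (-4.31 ± 0.96, adjusted p = 0.0339, 3.18 and 5.94 CPM at P12 against 0 to 0.946 later), and Tectb, a tectorial membrane protein (-3.35 ± 0.80, adjusted p = 0.0379). Both passed without the doubted library (-4.46 each, adjusted p = 0.0462 and 0.0308). In nonsensory epithelial-like cells 2 of 23 were lower, where 1.34% of all genes passed. They were Tectb (-5.63 ± 0.85, adjusted p = 0.00879), at 680 and 671 CPM at P12 and 0.77 to 74.8 later, and Thrsp, named for its response to thyroid hormone (-5.16 ± 0.94, adjusted p = 0.0293). Both passed without the doubted library (-5.42, adjusted p = 0.0021, and -5.15, adjusted p = 0.0251). Tectb was among the 10 leading genes of 1 of the 2 clusters that held most P12 cells of this class and no later cell, so that its difference is one between clusters too. None passed of 17 in Reissner's membrane-like, 18 in macrophage-like, 14 in Fxyd2/Otos and 6 in erythroid-like cells. In erythroid-like cells 0.0533% of 3755 genes and none of the 4 members passed.

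Of 16 pathway genes tested between cHC-like and SC-like cells at P33, 3 were higher in the former, Rxra and Slc7a5 among them, and 2 were lower, where 38% of all genes passed and 20.9% were higher, so the shares of the list were not above those of all genes. Rxra, a dimer partner of both receptors, was higher (2.98 ± 0.86, adjusted p = 0.00237), at 57.1 and 31.2 CPM against 4.52 and 7.33. Slc7a5, an amino acid transporter that also carries thyroid hormones, was higher (3.03 ± 0.49, adjusted p = 9.01e-09), at 116 and 176 CPM against 13.5 and 22.0. Kcnj10, a potassium channel of supporting cells (-4.59, adjusted p = 3.88e-14), and Tectb (-4.35, adjusted p = 1.41e-10) were lower. Against HC-like cells, where 15 were tested and 21.2% of all genes passed, Slc7a5 was among those higher (3.95, adjusted p = 0.00195) and Kcnj10 was lower (-4.49, adjusted p = 0.000354). These HC-like cells of Coch + Tmx P33 also held 5736 and 6210 CPM of nonsensory epithelial markers, whose part in the differences was not tested. Slc26a5, which encodes the outer hair cell motor prestin and responds to thyroid hormone, was 489 and 324 CPM in HC-like cells at P12. It was 21.2 and 0 CPM in those of Coch + Tmx P33 (2 and 0 UMIs in 7 cells each). In cHC-like cells at P26 and P33 it was 0 to 14.7 CPM. Slc26a5 was not among the genes with enough counts for the test. At P12 the HC-like cells held 1768 and 249 CPM of the nonsensory epithelial markers, below the P33 values just given. The part of this make-up in the Slc26a5 levels was not tested.

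The genes most like each member were named by the Pearson correlation of log2(CPM + 1) over 55 class sums with at least 20 cells, from 14 classes and 9345 genes. Sums of 1 library share its depth and those of 1 class its cell type, so these are descriptions. Nhsl1 was among the 3 genes most like Thrb (r = 0.802). Dio2 was most like Phex (0.875), Dmp1 (0.860) and Olfml2a (0.830), of which Phex and Dmp1 are genes of bone mineralisation. Phex and Dmp1 were also among the 10 leading genes of the P12 Cemip cluster. Dio3 was most like Scin (0.792), Lef1 (0.763) and Prex2 (0.736). Crym was most like Rarres1 (0.854), Tgfb1i1 (0.836) and Otor (0.811), and Klf9 most like Lamc1 (0.826), Sptbn1 (0.817) and Insig2 (0.815). Thra was most like Fermt2 (0.836), Hdgfrp3 (0.833) and S100a16 (0.828), and Slc16a10 most like Lyl1 (0.740), Blvrb (0.667) and Cdk1 (0.655), a weaker likeness than for the other members.

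Over all kept cells of a library, without regard to class, fewer cells of a type and less RNA of a gene per cell cannot be told apart. Dio3 was 4.67 and 7.01 CPM at P12 and 0.698 to 2.51 in the 6 later libraries, without overlap. The share of all genes without overlap is not given here, so the separation of Dio3 is a description only. The Dio3 difference in mean log2(CPM + 1) was -1.64 (exact two-sided permutation test, p = 0.0714, the smallest that 2 against 6 libraries allow). Klf9 (-1.25, exact p = 0.143), Crym (-0.81, exact p = 0.143), Slc16a10 (-0.42, exact p = 0.143), Thrb (-0.56, exact p = 0.286), Thra (0.05, exact p = 0.857) and Dio2 (0.00, exact p = 1) overlapped between the ages, and without the doubted library the differences ran from -1.78 (Dio3) to 0.24 (Dio2). The exact test cannot reach p = 0.05 in this design.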

How the data were processed

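Organs of Corti were dissociated with enzymes, and libraries were made with 10x Chromium 3′ v2 kits and sequenced on an Illumina HiSeq. The authors deposited filtered matrices of UMI counts per gene and cell from Cell Ranger (version not given in the sources used here) on mm10. Per the labels, 8 libraries fell into 4 groups of 2, 3, 2 and 1. Nothing in the labels says whether libraries of a group came from separate animals, so p-values measure the spread between these libraries.

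Cells with at least 500 genes and under 25% mitochondrial UMIs were kept. Doublets were scored per library (0.8% removed per 1000 barcodes). Counts were clustered in scanpy 1.11.5 (2000 variable genes, 30 components, Leiden resolution 1.0, 33 clusters, of which 29 were named from at least 3 markers). Counts were summed per library and class (at least 10 cells, or 5 where HC-like cells entered), and tested in edgeR 4.0.16 (quasi-likelihood, TMM, R 4.3.3), adjusting p by Benjamini-Hochberg across the whole table (threshold 0.05). CPM values are UMIs scaled to 1000000 per class sum. Intervals (95% Poisson) and floors (3 counts) cover counting error only. In data simulated for the stromal-like age contrast, 33% of genes changed by 1 on the log2 scale and 92.6% of those changed by 2 were recovered, and 14.7% of calls were false. For cHC-like against SC-like cells these values were 20.9%, 81.7% and 2.7%. All 7 genes were looked at in each comparison, but not every difference of a tested member is printed. Pathway genes were named where they passed, and the 3 genes most correlated with each member were named. Some genes that these rules name are not reported here. The members and lists were chosen with earlier results of these data known. Alternatives were other scaling, DESeq2 1.42.0, filters, clustering, libraries left out and the replicate block.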

Additional observations from a re-analysis of the deposited data

Results flagged for a closer look

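The age difference of Dio2 differed between the stromal-like and the nonsensory epithelial-like class, by 3.57 on the log2 scale (edgeR interaction test, adjusted p = 0.0444). The epithelial side rested on 15 UMIs in 631 cells, 8 of them in 2 cells of Coch P12 rep 1. Over its alternatives the adjusted p ran up to 0.83, without Coch P12 rep 1. Libraries far from their own group were not looked for, since no group held 4 of them.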

How the results depend on the processing

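Of 649 comparisons of single members with an alternative setting, 584 kept their direction and their side of the threshold, 22 gained and 24 lost the call, and 19 turned direction, and 6 more had no adjusted p. The causes of the changes below were not tested unless the setting itself leaves fewer libraries. Counts of members called moved as follows. Stromal-like, 1, became 2 with DESeq2, under 10% mitochondrial UMIs or with later libraries pooled, 4 with no expression filter or Leiden resolution 2.0, and 3 with the replicate block (Dio2 1.43, Dio3 -1.89), and ran from 0 to 2 with each library left out. Reissner's membrane-like, 1, became 0 with DESeq2, pooled or with the replicate block (Klf9 -0.72), and 0 to 1 with each library left out. Fxyd2/Otos, 0, became 1 with RLE scaling, no filter, doublets kept, resolution 2.0 or P33 only, and 0 to 1 with libraries left out. Nonsensory epithelial-like, 0, became 1 with no filter. The age-by-class count, 1, became 0 with DESeq2, doublets kept, resolution 2.0 or no replicate block, 2 with no filter, and 0 to 1 with libraries left out. cHC-like against SC-like, 1, became 0 with DESeq2, no filter, under 10% mitochondrial UMIs or no replicate block. cHC-like against HC-like, 1, became 0 with DESeq2. HC-like against SC-like, 0, became 1 with no filter or doublets kept, and 0 to 1 with libraries left out. Neighbours that differed in class level were 7 of 84, 9 of 60 with at least 20 cells and 6 of 84 without the doubted P26 library, 5 of them called in both, an alternative chosen after seeing the data.

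All 19 reversals were of differences that had not passed. Erythroid-like Thra turned to 0.0237 with at least 20 cells and ran from -0.493 to 0.173 as libraries were left out. Macrophage-like Slc16a10 turned to 0.0256 in P33 only (-0.106 to 0.058 with libraries left out), and Klf9 to -0.0997 with doublets kept and -2.15 without droplets holding stromal RNA, the last chosen after seeing the data. Nonsensory epithelial-like Thrb ran from -0.397 to 0.243 as libraries were left out, and Thra turned to -0.11 with the replicate block. Over all cells, Thra ran from -0.0145 to 0.095, and Dio2 from -0.177 to 0.263, as libraries were left out. Dio2 was -0.0161 without hemoglobin, mitochondrial and ribosomal genes and -0.00917 with doublets kept.

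Same-numbered libraries correlated at -0.162 to 0.162 in stromal-like cells. With so few libraries per group these values come in equal and opposite pairs, so they cannot tell whether same-numbered libraries were paired. The block changed no other call than those given. Too few libraries were left to fit Fxyd2/Otos under 10% mitochondrial UMIs, with 20 cells, without either P12 library or with the block, erythroid-like with the block, and Reissner's membrane-like at resolution 2.0. The same held for cHC-like against SC-like with 20 cells or without either library, cHC-like against HC-like under 10% mitochondrial UMIs, with more cells, with doublets kept or without either library, and HC-like against SC-like under 10% mitochondrial UMIs or with more cells. HC-like cells, at 3 to 28 per library, limit what the native hair cells can show.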

Other observations

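In the 1954 barcodes with fewer than 500 genes, where hemoglobin transcripts made up 90.8% to 94.8% of UMIs per library, the pooled level was 3.68 CPM for Slc16a10, 3.13 for Thra and 4.46 for Klf9, and at most 0.626 CPM for Thrb, Dio2, Dio3 and Crym. Slc16a10, which was highest in erythroid-like cells, was thus also among the members read in these barcodes. In stromal-like cells the circadian regulator Dbp was 113 and 120 CPM at P12 and 42.1 to 137 later. Per3 was 144 and 120 against 46.5 to 121, and Tef 81.9 and 64.9 against 32.6 to 90.9. Nr1d2 was 39.5 and 26.1 against 18.9 to 45.0. Nr1d1, at 11.5 and 18.0 against 41.6 to 116, was alone among these clock genes in lying below every later library at P12. Among later libraries Coch + Tmx P26 rep 1 was highest for each of the 5, and their part in the Klf9 values was not tested. The circadian list of 5 genes was chosen after values were seen, and the time of day of dissection was not used here. Sgk1 (33.1 CPM), Per1 (45.0) and Tsc22d3 (121) were, like Fkbp5 and Zbtb16, highest in Coch + Tmx P26 rep 1, against at most 25.1, 25.8 and 65.2 CPM in the other libraries.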
